A study of Homo sapiens with 2 samples.

Results

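The 10 genes described here are the complement C1q trio (*C1QA*, *C1QB* and *C1QC*) and 7 macrophage receptor genes (*CD163*, *MRC1*, *MARCO*, *MSR1*, *FOLR2*, *TIMD4* and *VSIG4*). They were chosen by symbol from the 36601 genes counted in blood-generating heart-forming organoids (BG-HFOs) on day 14 of differentiation, and all 10 were found in both libraries. Both organoids, named 32.7 and 33.10 in the labels, came from 1 human embryonic stem cell line, hES3 NKX2.5-eGFP, which carries a fluorescent cardiac reporter. Aggregates in Matrigel received biphasic WNT modulation with CHIR99021 and IWP2 and growth factors for blood and endothelium, so both organoids share 1 condition and every comparison is between kinds of cells. Each organoid was cultured independently, dissociated whole without a sort and gave 1 droplet library of 3′ transcript ends.

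C1q is the recognition part of the classical complement pathway. Its A, B and C chains are encoded by separate genes, assemble together, bind antibody complexes and dying cells, and are made mainly by macrophages. CD163 takes up haemoglobin bound to haptoglobin, MRC1 (CD206) binds mannose-ending glycoproteins, MARCO and MSR1 are class A scavenger receptors for modified lipoproteins and bacteria, FOLR2 binds folate, TIMD4 binds the phosphatidylserine that dying cells expose and VSIG4 binds fragments of complement C3. Several of these genes mark macrophages that reside in tissues, and *MRC1* is also known from sinusoidal and lymphatic endothelium.

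The C1q genes lie side by side on the plus strand of chromosome 1 (GRCh38, GENCODE release 44) within 26561 bases, in the order *C1QA* (22635077 to 22639678), *C1QC* (22643014 to 22648110) and *C1QB* (22652762 to 22661637). The receptor genes lie apart from them and from each other. *CD163* is on chromosome 12 (7470811 to 7503893, minus strand), *MRC1* on chromosome 10 (17809348 to 17911164, plus) and *MARCO* on chromosome 2 (118942194 to 118994660, plus). *FOLR2* is on chromosome 11 (72216601 to 72221950, plus), *TIMD4* on chromosome 5 (156919292 to 156963226, minus) and *VSIG4* on chromosome X (66021738 to 66040125, minus).

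Promoters are shown because members of separate chromosomes were higher in the same cells, together with *MAF*, a transcription factor gene of macrophages, as described further on. The 250 bases before the start site were read from RefSeq (GRCh38.p14) for 6 members, *C1QA*, *C1QB*, *CD163*, *MARCO*, *TIMD4* and *VSIG4*. The letters TGCTGA of a MAF recognition core, on either strand, were held by 4 of the 6 and by 14.0% of the 35116 promoters of the same length. *C1QA* had 2 RefSeq start sites, both inside the gene span given above. The stretch before the one nearer to the start of the GENCODE canonical transcript was used, and with the other, which lacks these letters, the count was 3 of 6. The PU.1 core GAGGAA was held by 1 of the 6 and by 23.6% of all promoters, and the AP-1 letters TGANTCA by 0 of 6 and by 6.57%. A match is a description of letters, not a site of binding, and whether MAF acts on these genes was not tested. The 4 promoters with a MAF core are given 5′ to 3′ on the strand of the gene, with matches in capitals (TGCTGA, or TCAGCA on the opposite strand, and in *CD163* also a PU.1 core, which does not overlap it). They span chr1:22636378-22636627 (*C1QA*, plus strand), chr1:22652986-22653235 (*C1QB*, plus), chr12:7503778-7504027 (*CD163*, minus) and chr5:156963227-156963476 (*TIMD4*, minus). Against the GENCODE spans given above, the stretches of *C1QA* and *C1QB* lie inside their genes and that of *CD163* lies partly inside.
C1QA: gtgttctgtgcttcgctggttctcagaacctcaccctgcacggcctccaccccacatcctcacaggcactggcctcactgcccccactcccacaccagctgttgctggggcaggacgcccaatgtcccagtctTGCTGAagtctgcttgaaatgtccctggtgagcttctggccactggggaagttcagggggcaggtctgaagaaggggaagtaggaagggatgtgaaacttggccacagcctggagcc
C1QB: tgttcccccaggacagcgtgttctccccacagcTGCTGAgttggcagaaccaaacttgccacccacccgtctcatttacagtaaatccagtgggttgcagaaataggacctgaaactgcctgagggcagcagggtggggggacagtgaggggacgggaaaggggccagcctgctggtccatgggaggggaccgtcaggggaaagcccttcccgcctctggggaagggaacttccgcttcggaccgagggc
CD163: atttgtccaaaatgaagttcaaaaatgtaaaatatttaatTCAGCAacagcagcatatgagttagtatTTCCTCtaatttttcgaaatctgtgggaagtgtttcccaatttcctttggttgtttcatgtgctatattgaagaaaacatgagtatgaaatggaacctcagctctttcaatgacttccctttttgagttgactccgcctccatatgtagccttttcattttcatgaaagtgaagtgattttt
TIMD4: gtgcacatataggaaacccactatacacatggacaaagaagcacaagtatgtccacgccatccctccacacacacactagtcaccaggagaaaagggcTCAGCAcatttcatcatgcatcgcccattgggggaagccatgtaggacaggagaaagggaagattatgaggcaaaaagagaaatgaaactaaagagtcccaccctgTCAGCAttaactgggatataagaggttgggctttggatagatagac

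The libraries held 191152562 and 233818881 UMIs (unique molecular identifiers, which count captured transcripts) in 16866 and 19948 barcodes, of which 16792 and 19893 passed the cell filter, and 100 barcode sequences occurred in both. In each pair of values the first belongs to organoid 32.7 and the second to 33.10. *PTPRC*, which encodes the leukocyte antigen CD45, had a UMI in 1900 (11.3%) and 1051 (5.28%) cells. Clustering without the members gave a single cluster named monocyte/macrophage-like (Mo/Mø), with 986 and 432 cells (5.87% and 2.17%). All 9 of the markers that named it were detected in both organoids, among them *CD14* (371 and 511 CPM, a UMI count scaled to the library size of the summed cells, in the usual CPM unit). *S100A9*, *S100A8*, *SPP1* and *LYZ* led the cluster, and 77.6% and 81.9% of its cells had a *PTPRC* UMI. The other named classes were granulocyte-like (Gran), megakaryocytic (Mk), erythroid (Ery), arterial and venous endothelial (AE and VE), cardiomyocyte (CM) and mesenchymal (MES). A further 4154 and 3877 cells stayed unnamed. No cluster was named for proepicardium and septum transversum, which the study lists apart from mesenchyme. The largest MES cluster (1410 and 1829 cells) was also raised in markers of these tissues, so MES here may include them. Levels are compared between cells and not between genes, since intronic reads were counted and gene lengths differ. In summed counts, fewer cells with a transcript and less transcript per cell cannot be told apart, so shares of cells are given too.

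The C1q trio was concentrated in the Mo/Mø cells. *C1QA* stood at 660 and 458 CPM there, *C1QB* at 750 and 471 CPM and *C1QC* at 668 and 490 CPM. Of the UMIs of these genes in a library, 84.8% to 87.7% came from the Mo/Mø cluster. By cells they were less confined, above all in organoid 32.7. At least 2 C1q genes were held by 631 and 296 Mo/Mø cells and by 379 and 37 unnamed cells. Of these unnamed cells 347 and 36 held at least 2 Mo/Mø markers, and 209 and 32 had a *PTPRC* UMI. Among unnamed cells without C1q, 27.5% and 33.4% held at least 2 Mo/Mø markers. In the Mk, Ery, AE, VE, CM and MES classes each of the genes stood between 0 and 3.24 CPM, and in each of these classes each gene was higher in organoid 32.7, which had the larger share of Mo/Mø cells. *C1QB* had 5 UMIs in the *PTPRC*-negative VE cells of organoid 32.7 and none in 947 VE cells of 33.10, which allows a share of cells with a UMI of up to 0.317% and sets no limit on cells that express the gene. In the AE, VE, CM and MES classes together, 28 of 8656 and 8 of 9282 cells held UMIs of at least 2 C1q genes, and 24 and 6 of these also held at least 2 Mo/Mø markers. Free RNA had not been removed from these counts, and its part in the low levels outside the Mo/Mø cluster was not tested.

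Gran cells had the next levels among the named classes, with *C1QA* at 7.67 and 15.8 CPM and *C1QC* at 14.8 and 33.2 CPM. Few cells carried these UMIs. At least 2 C1q genes were found in 18 of 597 and 9 of 205 Gran cells, with medians of 37315 and 27522 UMIs per cell against 9312 and 16943.5 in Gran cells without C1q. Of these cells with at least 2 C1q genes, 9 and 2 had high scores of the doublet caller Scrublet. High scores were set beforehand as the top 13.5% and 16.0% of all cells, an assumed doublet rate. The part of droplets with more than 1 cell was not tested. An unnamed cluster of 1573 and 834 cells, led by *S100A9*, *S100A8* and *LYZ* but with markers of several unrelated classes, held *C1QA* at 85.0 and 33.1 CPM.

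The receptors shared this distribution to different degrees. *CD163* stood at 160 and 208 CPM in Mo/Mø cells and at no more than 2.46 CPM in any other named class. *TIMD4* stood at 51.6 and 77.4 CPM in Mo/Mø cells and at 2.37 and 2.52 CPM in Gran cells, the next class. *FOLR2* stood at 50.5 and 37.5 CPM in Mo/Mø cells and next in Mk cells, the platelet lineage, at 1.48 and 1.08 CPM. *VSIG4* stood at 51.1 and 88.8 CPM in Mo/Mø cells, at 2.08 and 3.99 CPM in Gran cells and at 1.96 and 2.41 CPM in Mk cells. Mk cells numbered 1612 and 4219 and held 2.53% and 13.3% of the *FOLR2* UMIs and 3.06% and 11.6% of the *VSIG4* UMIs. A *VSIG4* UMI was found in 1.67% and 2.11% of Mk cells, against 27.1% and 43.1% of Mo/Mø cells. *MRC1* differed from the other receptors, with 323 and 450 CPM in Mo/Mø cells and 103 and 142 CPM in VE cells.

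Few UMIs of either class A scavenger receptor were captured. *MARCO* had only 103 and 60 UMIs in the libraries, of which 92.2% and 95% came from Mo/Mø cells (6.43 and 9.02 CPM), and none came from Mk, Ery, AE or VE cells. *MSR1*, on the minus strand of chromosome 8 (16107878 to 16567490), had 120 and 112 UMIs, of which 12.5% and 21.4% came from Mo/Mø cells. Its levels were 1.01 and 3.80 CPM in Mo/Mø cells and 0.716 and 0.519 CPM in MES cells. A small unnamed cluster led by *AFP*, a gene of foregut endoderm and yolk sac, held *MSR1* at 5.65 and 5.48 CPM (24 and 4 UMIs).

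**Figure D1:**
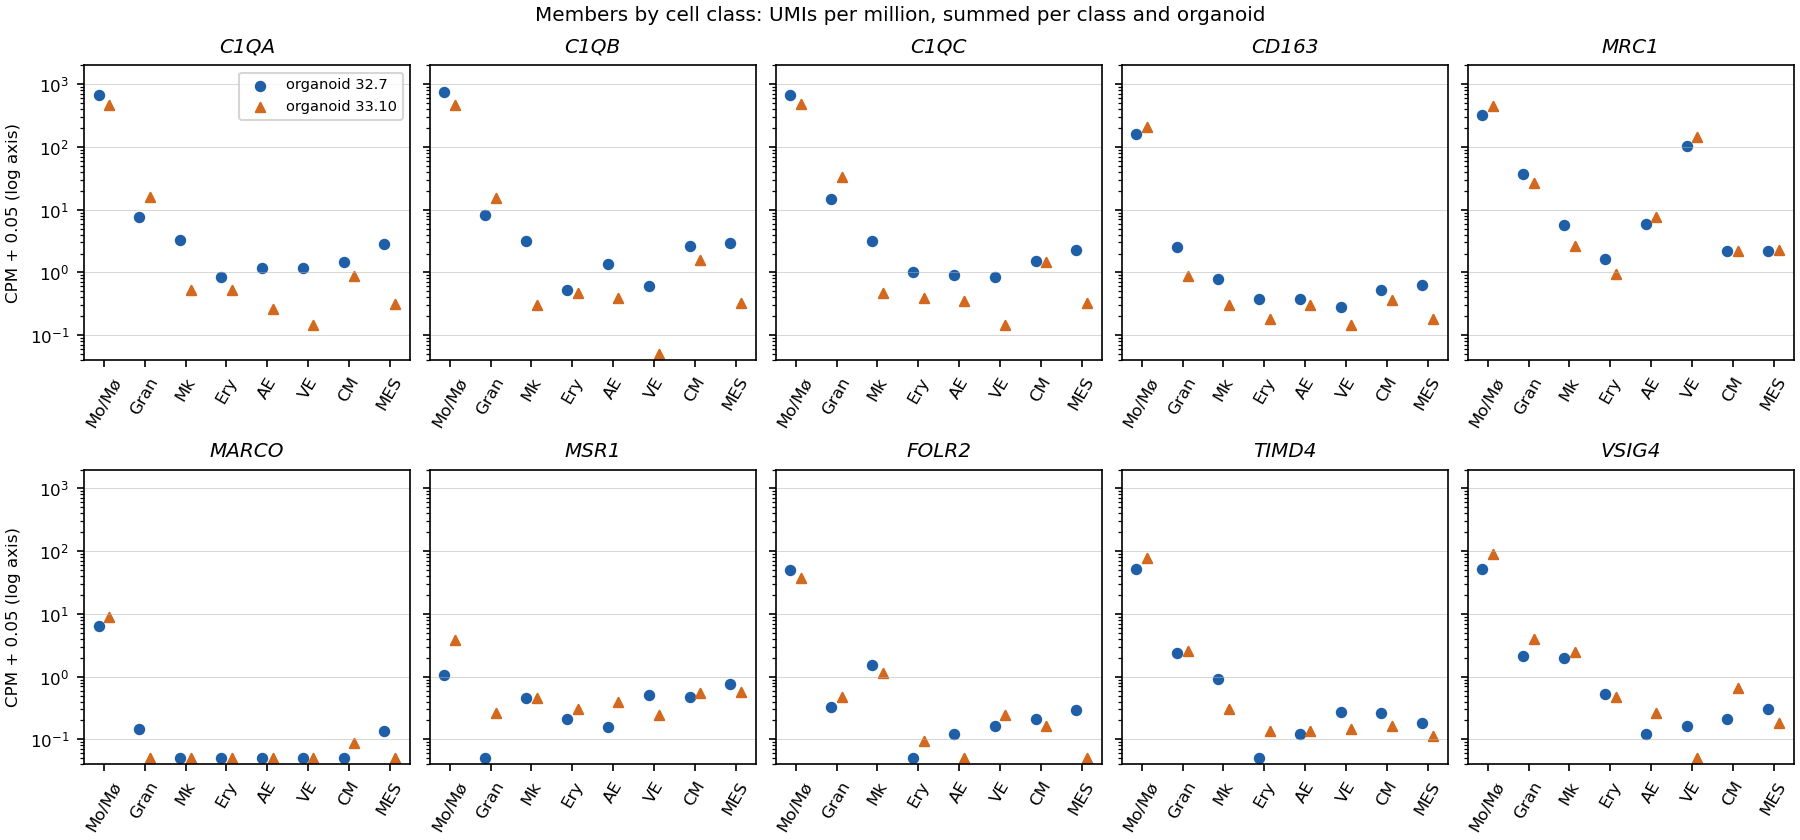
Each panel plots 1 member in CPM with 0.05 added, on a log axis, in the 8 named cell classes, with a circle for organoid 32.7 and a triangle for 33.10, each from 1 sum of UMIs. Every member is highest in Mo/Mø cells, *MRC1* has a further peak in VE cells (103 and 142 CPM), and *MSR1* is low in every class, with a highest value of 3.80 CPM.

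*PTPRC*-positive cells were first compared with *PTPRC*-negative cells, which asks how far the members follow leukocytes. Median depths were 13829 and 16857 UMIs in the positive and 7366 and 8022 in the negative cells. Without high Scrublet scores 1502 of 1900 and 761 of 1051 positive cells remained, and 13024 of 14892 and 15957 of 18842 negative cells. CM markers summed to 1188 and 1237 CPM in the positive and 3161 and 2787 CPM in the negative cells. The part of depth in the differences was not tested. Of the 10 members 9 were higher in the *PTPRC*-positive cells, where 13.4% of all 24563 genes tested were called higher (26.7% in either direction). *C1QA* stood at 292 and 143 CPM in the positive and 5.46 and 0.761 CPM in the negative cells (log2 fold change 6.28, SE 1.10, edgeR adjusted p = 0.0172). *C1QB* stood at 328 and 146 CPM against 6.28 and 0.637 CPM (6.25, SE 1.24, adjusted p = 0.0235), and *C1QC* at 298 and 155 CPM against 5.07 and 0.876 CPM (6.40, SE 1.01, adjusted p = 0.0131). The negative cells of organoid 32.7 held several times as much C1q as those of 33.10. *CD163* (72.2 and 63.2 CPM against 1.53 and 0.311 CPM) and *TIMD4* (23.8 and 23.5 CPM against 0.561 and 0.153 CPM) had the same gap between the negative cells of the organoids. *CD163* was higher by 6.37 (SE 0.80) and *TIMD4* by 6.22 (SE 0.63) on the log2 scale. *FOLR2* (5.50, SE 0.58), *VSIG4* (5.22, SE 0.19) and *MARCO* (6.15, SE 0.31) were also higher. *MRC1* had the smallest called difference, at 157 and 147 CPM against 11.9 and 11.5 CPM (3.85, SE 0.12, adjusted p = 0.00148). *MSR1* stood at 0.732 and 1.07 CPM against 0.607 and 0.421 CPM and did not pass (0.93, SE 0.35, adjusted p = 0.110).

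The sizes of the C1q folds depended on the organoid. Without organoid 32.7, which leaves 1 library in each group and no test, as wherever an organoid is left out, the log2 fold changes were 7.54 for *C1QA*, 7.84 for *C1QB*, 7.46 for *C1QC*, 7.66 for *CD163* and 7.24 for *TIMD4*. Without 33.10 they were 5.74, 5.71, 5.88, 5.56 and 5.40 in the same order. The negative cells included Mo/Mø cells in which no *PTPRC* UMI was captured, and when Mo/Mø and unnamed clusters were left out of them, an alternative chosen after seeing the data, *C1QA* had a log2 fold change of 8.11, *CD163* of 8.43 and *MRC1* of 3.96, and *MSR1* passed (1.19, adjusted p = 0.0403).

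Mo/Mø cells were then compared with all other *PTPRC*-positive cells (765 and 354 against 1135 and 697 cells), to place the members among the leukocytes. Again 9 of 10 members were higher in the Mo/Mø cells, beside 13.2% of 18257 genes (26.0% were called in either direction). *C1QA* (664 and 461 against 43.5 and 23.5 CPM), *C1QB* and *C1QC* were higher by 4.28 (SE 0.37), 4.36 (SE 0.42) and 4.13 (SE 0.30) on the log2 scale, and *C1QB* had the largest edgeR adjusted p of these, 0.00225. *CD163* stood at 162 and 211 CPM in Mo/Mø cells and 12.0 and 8.03 CPM in the others (4.42, SE 0.25, adjusted p = 0.00106). *MARCO* had 95 and 51 UMIs in the Mo/Mø cells and 2 and 1 in the others, the largest difference of the 10 (6.61, SE 0.43, adjusted p = 0.0012). *FOLR2* (4.28, SE 0.22), *TIMD4* (4.26, SE 0.31), *VSIG4* (3.81, SE 0.37) and *MRC1* (3.58, SE 0.24) were higher as well. Without organoid 33.10, the log2 fold changes were 3.76 for *CD163*, 2.89 for *MRC1*, 3.44 for *TIMD4* and 5.84 for *MARCO*. *MSR1* had 15 and 24 UMIs against 11 and 0 and did not pass (3.14, SE 1.08, adjusted p = 0.0823), but did with organoid as a block (3.01, adjusted p = 0.0389). The other cells were of mixed kinds, with 332 and 134 Gran, 108 and 270 Mk and 579 and 226 unnamed cells and fewer of each remaining class. Granulocyte markers summed to 6074 and 3977 CPM there and to 719 and 849 CPM in the Mo/Mø cells. Mk markers summed to 2118 and 3285 against 312 and 711 CPM, Ery markers to 1802 and 3742 against 957 and 1586 CPM and CM markers to 1774 and 1585 against 308 and 305 CPM. The part of this makeup in the fold sizes was not tested. With the unnamed clusters left out, also chosen after seeing the data, all 10 members passed, *C1QA* with a log2 fold change of 5.94, *CD163* with 6.28 and *MSR1* with 4.21 (adjusted p = 0.0488).

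Other genes with related functions were counted from lists. In the Mo/Mø cells 14 of 20 tested genes of macrophage clearance and residence were higher and 1 lower, with a median log2 fold change of 1.77 against -0.02 over all genes. *GPNMB* (3.95), *SIGLEC1* (3.93), a sialic acid receptor of tissue macrophages, *HMOX1* (3.52), which breaks down haem, and *MAF* (3.42) rose most, while *SLC40A1*, the iron exporter, fell by 1.63. Of other scavenger receptors 11 of 17 were higher and 2 lower (median 1.68), led by the lipid receptor *CD36* (3.54) and the β-glucan receptor *CLEC7A* (3.28). Other complement genes were divided, with 10 of 30 higher and 6 lower (median 0.49). The anaphylatoxin receptors *C5AR1* (2.99) and *C3AR1* (2.86) rose most, and the terminal component *C7* (-2.88) and the lectin pathway protease *MASP1* (-2.14) fell most. Of monocyte and granulocyte genes 9 of 11 were higher and none lower (median 2.44), led by *S100A12* (3.33).

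**Figure D2:**
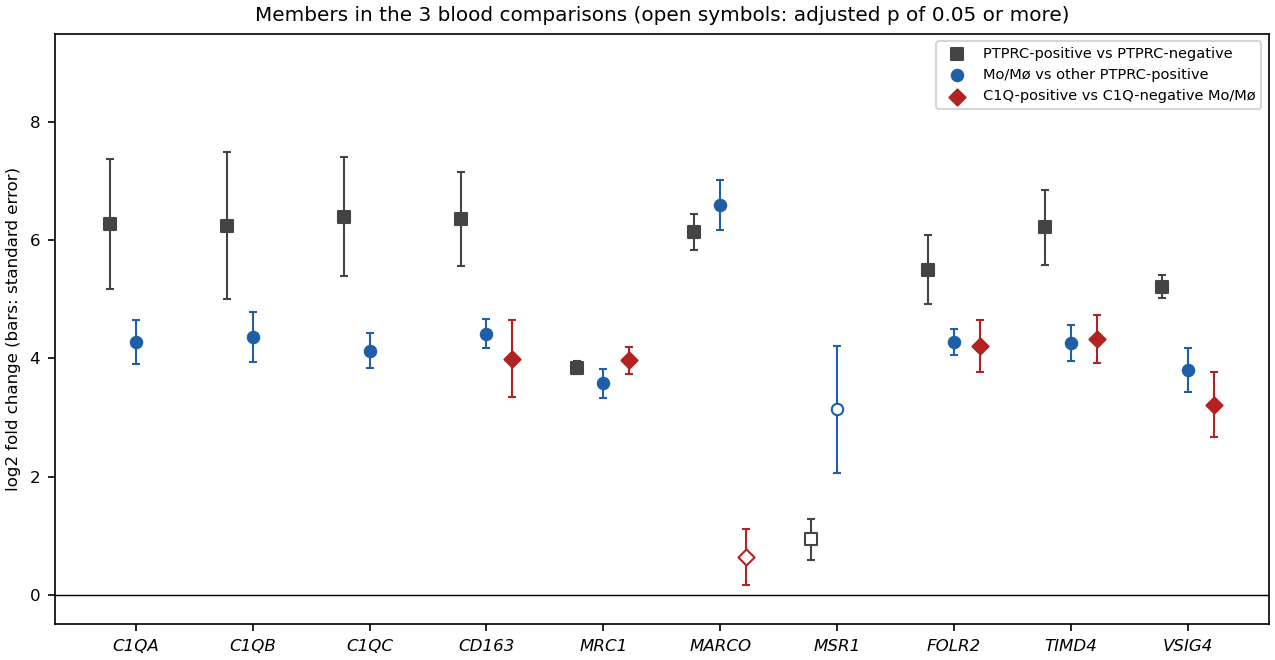
The log2 fold change of each member is plotted with its standard error for *PTPRC*-positive against *PTPRC*-negative cells (squares), Mo/Mø against other *PTPRC*-positive cells (circles) and C1Q-positive against C1Q-negative Mo/Mø cells (diamonds), with open symbols where the adjusted p was 0.05 or more. *MSR1* was called in none of them, and *MARCO* was called in the comparisons of *PTPRC* (6.15) and Mo/Mø cells (6.61) but not in that of C1Q (0.64).

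Within the *PTPRC*-positive Mo/Mø cells the C1q genes were found together. All 3 had a UMI in 433 of 765 cells (56.6%, 95% exact binomial interval 53.0 to 60.1) and in 207 of 354 cells (58.5%, 53.1 to 63.7). A further 104 and 64 cells held 2 of the genes, 77 and 40 held 1, and 151 and 43 (19.7% and 12.1%) held none. After each cell was thinned to 3000 UMIs, which left 734 and 321 cells, all 3 were held by 40.2% and 33.0% and none by 29.6% and 22.4%. For comparison, *C1QA* had a UMI in 65.7% and 69.7% of all Mo/Mø cells (median depth 11272 and 11514.5 UMIs) and in 1.25% and 0.181% of AE cells (11600 and 8534 UMIs).

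*C1QB* was the C1q gene found in the fewest cells. Cells with *C1QA* held *C1QC* in 96.0% and 95.6% and *C1QB* in 80.0% and 76.6%, while cells with *C1QB* held *C1QA* in 96.7% and 95.4%. At 3000 UMIs per cell, cells with *C1QA* held *C1QC* in 86.3% and 82.0% and *C1QB* in 73.6% and 64.0%, so the order was the same at equal depth. Of the C1q UMIs of Mo/Mø cells in organoid 32.7, *C1QA*, *C1QB* and *C1QC* made up 31.8%, 36.1% and 32.1%. In 33.10 they made up 32.3%, 33.2% and 34.5%. These are shares of captured UMIs and do not give the ratio of the transcripts or of the chains. The amount per cell varied widely, from 0 to 15708 CPM of C1q with a median of 1321 in organoid 32.7, and from 0 to 13299 with a median of 991 in 33.10. The 77 and 36 cells with the most C1q UMIs held 42.9% and 39.8% of them.

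The receptors were found with C1q to different degrees. At 3000 UMIs per cell, *MRC1* had a UMI in 59.3% and 65.2% of the cells with *C1QA* and in 20.5% and 44.1% of those without. *CD163* was found in 39.6% and 48.9% with and 10.3% and 26.6% without, and *VSIG4* in 19.9% and 28.7% with and 6.95% and 17.5% without. *FOLR2* was found in 21.1% and 15.7% with and 1.99% and 6.99% without. In each of these splits by *C1QA* the gap was wider in organoid 32.7. Split by *C1QC*, the gaps of *MRC1*, *CD163* and *FOLR2* were again wider in 32.7. That of *VSIG4* was wider in 33.10, with 20.8% and 30.1% with *C1QC* and 4.61% and 12.2% without. *TIMD4* was found in 17.1% and 17.4% with *C1QA* and in 3.64% and 13.3% without, so that cells with and without *C1QA* were close in organoid 33.10. With *C1QC* it was found in 16.2% and 19.4%, and without *C1QC* in 4.26% and 8.70%. *MARCO* was found in 2.55% and 2.81% with *C1QA* and in 2.98% and 0% without, on 20 and 5 cells in all.

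The receptors also went with each other. Cells with *CD163* held *MRC1* in 72.3% and 77.6% at 3000 UMIs per cell, and cells without it in 32.3% and 41.8%. Read at the same depth, cells with *FOLR2* held *VSIG4* in 34.0% and 57.9%, and cells without it in 11.6% and 19.1%. As counted, a *PTPRC*-positive Mo/Mø cell held a median of 5 members in both organoids (3 after thinning) and at most 9. At least 7 members were held by 26.3% and 32.2% of these cells and by 1.67% and 1.29% of the other *PTPRC*-positive cells. At 3000 UMIs per cell these shares were 4.90% and 6.23%, against no cell of 1016 and 663 others.

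**Figure D3:**
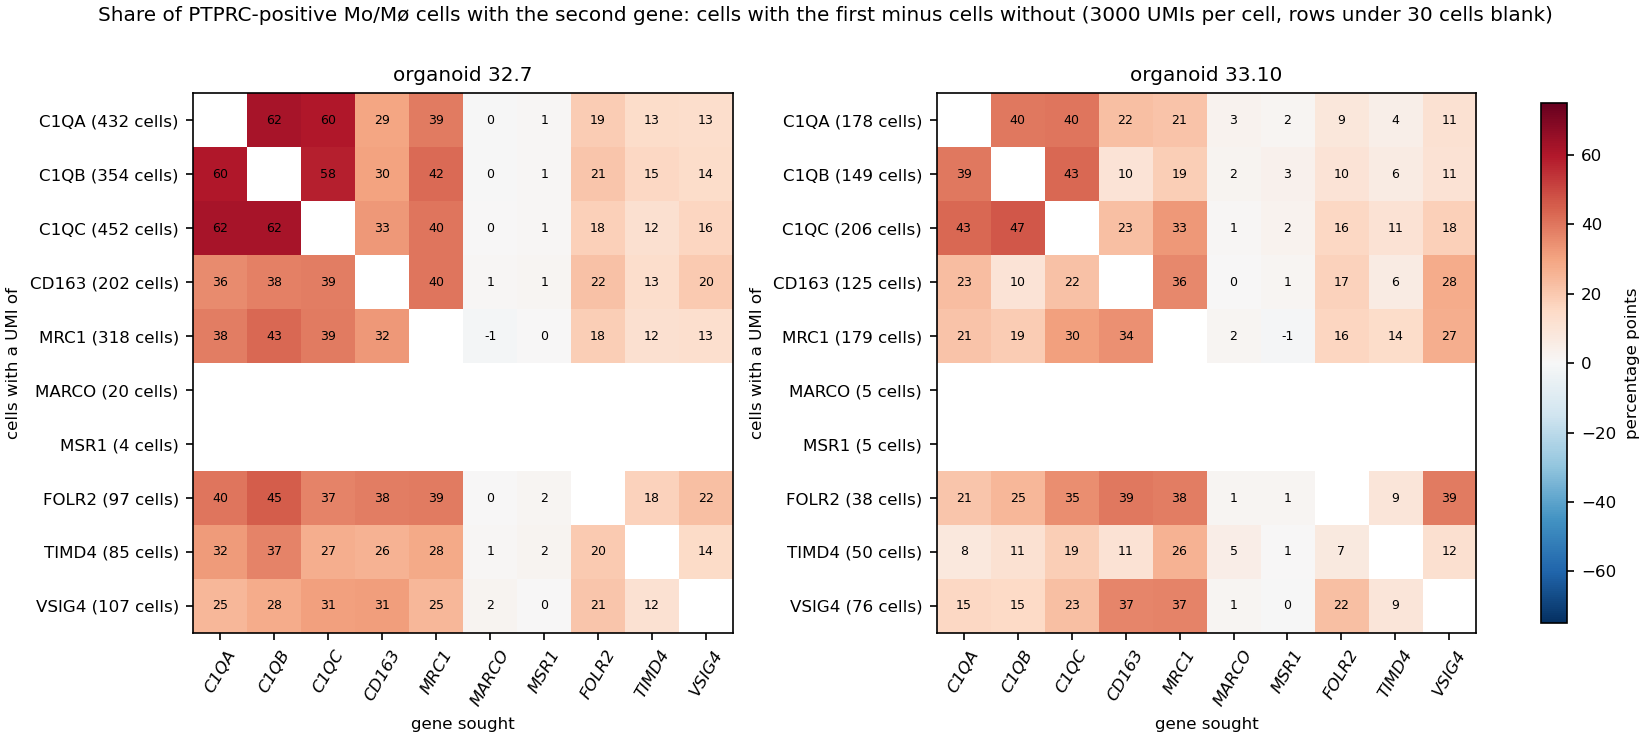
Each square gives the share of *PTPRC*-positive Mo/Mø cells with a UMI of the column gene among cells with the row gene minus the share among cells without it, in percentage points at 3000 UMIs per cell, with organoid 32.7 on the left and 33.10 on the right. The C1q genes form the darkest block in organoid 32.7, while in 33.10 the square of *CD163* in the *FOLR2* row is as dark as some of theirs. The squares between C1q, *CD163*, *MRC1*, *FOLR2*, *TIMD4* and *VSIG4* are all above 0. The *MARCO* and *MSR1* columns are close to 0, while rows for *MARCO* (20 and 5 cells) and *MSR1* (4 and 5 cells) are left blank.

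To test what goes with C1q, *PTPRC*-positive Mo/Mø cells with UMIs of at least 2 C1q genes (C1Q-positive, 537 and 271 cells) were compared with those that held none (C1Q-negative, 151 and 43 cells). The trio chose the cells and was not tested. Of the other 7 members 6 could be tested and 5 were higher in the C1Q-positive cells, where 3.19% of 13282 genes were called higher (8.61% in either direction). *MRC1* stood at 412 and 518 CPM in C1Q-positive and 23.8 and 35.9 CPM in C1Q-negative cells (log2 fold change 3.97, SE 0.23, edgeR adjusted p = 0.000244). *FOLR2* stood at 65.0 and 43.7 CPM against 2.91 and 2.00 CPM (4.20, SE 0.44, adjusted p = 0.00204), and *TIMD4* at 67.7 and 91.3 CPM against 2.43 and 7.99 CPM (4.33, SE 0.41, adjusted p = 0.00148). *CD163* stood at 209 and 239 CPM against 3.88 and 39.9 CPM (4.00, SE 0.65, adjusted p = 0.011), and *VSIG4* at 64.3 and 99.5 CPM against 3.88 and 22.0 CPM (3.22, SE 0.55, adjusted p = 0.0133). The call of each of these 5 genes rests on 2 sums per group. In the C1Q-negative cells *MRC1* had 49 and 18 UMIs and *FOLR2* 6 and 1. *TIMD4* had 5 and 4 UMIs there, *CD163* 8 and 20 and *VSIG4* 8 and 11. *MARCO* stood at 7.30 and 9.60 CPM against 5.83 and 2.00 CPM and did not pass (0.64, SE 0.48, adjusted p = 0.450). *MSR1* had 14 and 24 UMIs against 1 and 0 and was too scarce to be tested.

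In CPM *CD163*, *VSIG4* and *TIMD4* were higher in the C1Q-negative cells of organoid 33.10 than in those of 32.7. These levels rest on few UMIs (8 and 20, 8 and 11, and 5 and 4), and a difference between the organoids was not tested. Without organoid 33.10 the log2 fold changes of *CD163*, *VSIG4* and *TIMD4* were 5.67, 3.96 and 4.66. Without 32.7 they were 2.55, 2.12 and 3.35. The call of *CD163* was lost with DESeq2 (3.36, adjusted p = 0.111). At a clustering resolution of 1.2, which left 73 and 23 C1Q-negative cells, *CD163* (3.14, adjusted p = 0.117) and *VSIG4* (2.54, adjusted p = 0.138) did not pass, and *TIMD4* did not when C1Q was read after thinning (2.21, adjusted p = 0.0869). With organoid as a block, 2093 in place of 1144 genes were called over all genes, and the same members.

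The C1Q-negative cells were richer in the listed genes of monocytes and granulocytes. Of the monocyte and granulocyte genes none was higher in the C1Q-positive cells and 9 of 11 were lower, with a median log2 fold change of -2.01 against 0.03 over all genes and 5.42% of all genes called lower. *S100A12* stood at 20.0 and 16.8 CPM in C1Q-positive against 1491 and 575 CPM in C1Q-negative cells (-5.93, SE 0.47, adjusted p = 0.000735), and *S100A8* at 1827 and 1476 against 22326 and 19817 CPM (-3.78, SE 0.15). *BPI*, a granule protein gene, stood at 6.19 and 3.92 against 397 and 270 CPM, and *CEACAM8*, *DEFA4* and *IL18RAP* were the other genes that fell most. The granulocyte markers that named the Gran class summed to 193 and 664 CPM in C1Q-positive and 2997 and 3235 CPM in C1Q-negative cells, with *ELANE* and *CTSG* at 0 in the former and *CTSG* and *EPX* at 0 in the latter of organoid 33.10. The Mo/Mø markers summed to 7545 and 7286 CPM in C1Q-positive and to 12633 and 10795 CPM in C1Q-negative cells, and median depths were 16630 and 15064 against 10928 and 7565 UMIs. The parts of granulocytes and of monocytes within the cluster in these differences were not tested.

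Genes of macrophage clearance and residence were higher in the C1Q-positive cells in 10 of 19 and lower in none (median 1.81). *AXL*, a receptor for dying cells, stood at 35.0 and 31.5 CPM against 1.94 and 0 CPM (4.29, SE 0.47, adjusted p = 0.00257), and *MAF* at 360 and 384 against 27.2 and 33.9 CPM (3.56, SE 0.18, adjusted p = 0.000138). *TREM2* (3.58) and *GPNMB* (3.39), of lipid-handling macrophages, rose as well. Of other scavenger receptors 5 of 13 were higher and none lower (median 0.83), with *LYVE1* (2.84), *CD36* (2.81) and *CLEC10A* (2.68) first. Other complement genes again went both ways, 4 of 25 higher and 6 lower (median 0.03). *C2*, a component of the pathway that C1q starts, rose by 3.31 and the receptor gene *C3AR1* by 2.43, whereas *CR1*, the receptor for C3b and C4b, fell by 2.87 and *CFP*, which encodes properdin, fell by 2.02. Over all genes, *MMP12* (37.3 and 11.9 CPM), *TNFRSF11A* (8.41 and 20.2 CPM) and *TNFRSF6B* (9.89 and 14.9 CPM) led the higher ones. Their SEs were 2.17, 1.88 and 1.38, with edgeR adjusted p of 0.0404, 0.0350 and 0.0135. They had no UMI in the C1Q-negative cells, whose sums held only 2060061 and 500783 UMIs, so these zeros do not show absence.

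**Figure D4:**
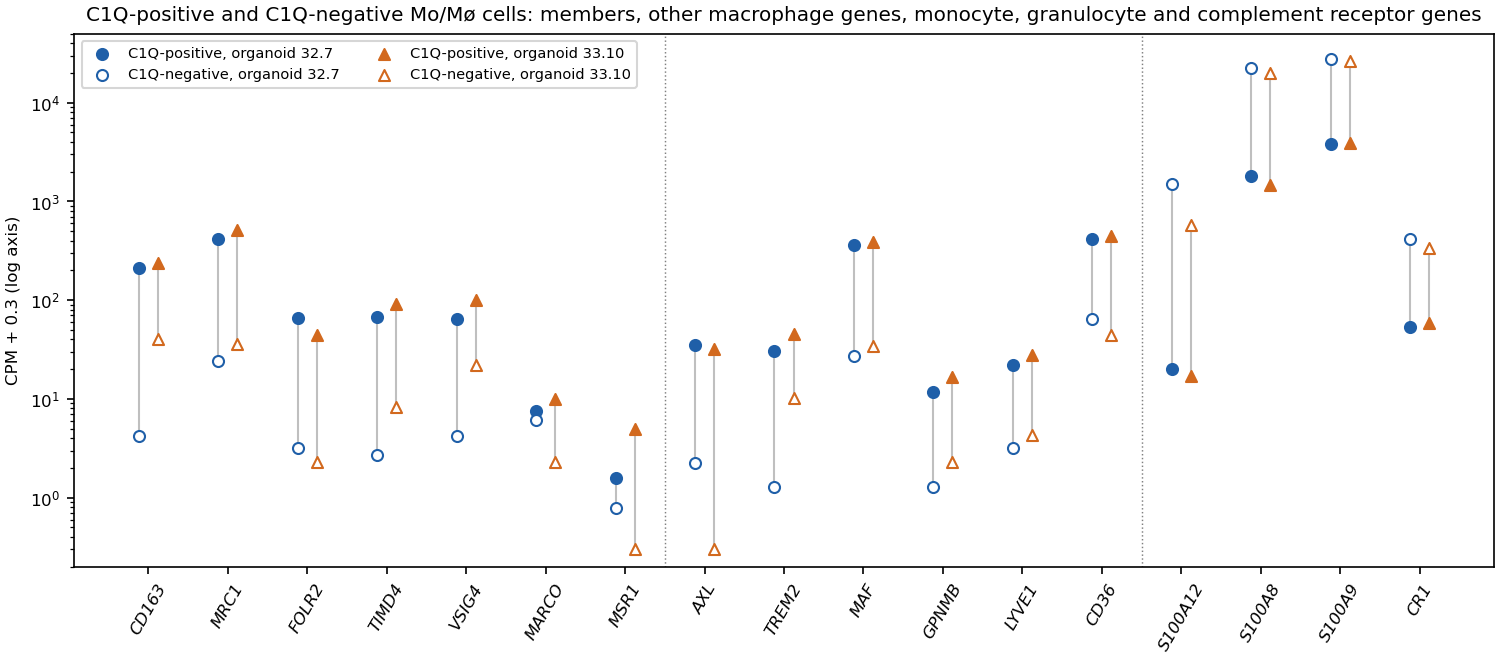
CPM with 0.3 added are plotted on a log axis for C1Q-positive (filled) and C1Q-negative (open) Mo/Mø cells, with circles for organoid 32.7 and triangles for 33.10 and a line joining the groups of an organoid. The members and the other macrophage genes shown lie higher in C1Q-positive cells, with *MARCO* nearly level in organoid 32.7 (7.30 and 5.83 CPM). *S100A12*, *S100A8*, *S100A9* and *CR1* lie higher in C1Q-negative cells. *MSR1* (14 and 24 against 1 and 0 UMIs) was too scarce to be tested. Genes other than members were picked by their values. Of the listed clearance and residence genes 9 of 19 were not called, and of other scavenger receptors 8 of 13.

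Among cells without *PTPRC*, endothelium was compared with CM and MES cells (2746 and 3146 against 5802 and 6089 cells), since scavenger receptors are known from some vessels. Of the 6 members that could be tested, *MRC1* was higher in endothelium and *MSR1* lower, beside 26.6% of 22499 genes called higher and 31.6% called lower, 58.2% in all. *MRC1* stood at 29.9 and 48.4 CPM against 1.59 and 1.99 CPM (log2 fold change 4.50, SE 0.25, edgeR adjusted p = 3.19e-05). With VE cells left out, chosen after seeing the data, it was still higher, by 1.97 (adjusted p = 0.000194). *MSR1* had only 7 and 10 against 38 and 37 UMIs (-1.11, SE 0.37, adjusted p = 0.0383), and its call was lost with DESeq2 (adjusted p = 0.254) and under further alternatives. *C1QA* (-0.50, adjusted p = 0.709), *C1QB* (-0.55, adjusted p = 0.668), *C1QC* (-0.23, adjusted p = 0.847) and *CD163* (0.72, adjusted p = 0.277) did not pass. The Mo/Mø markers summed to 50.9 and 47.4 CPM in endothelium and 46.2 and 43.0 CPM in CM and MES cells. Among the listed scavenger receptors 7 of 15 were higher and 5 lower in endothelium, with *LYVE1* (4.94), *STAB1* (4.83) and *SCARF1* (4.02) first.

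Within the *PTPRC*-negative endothelium *MRC1* was higher in VE than in AE cells (697 and 945 against 2049 and 2201 cells). It stood at 104 and 142 CPM against 5.62 and 7.48 CPM (4.16, SE 0.18, adjusted p = 2.95e-06), where 16.3% of 17848 genes were called higher and 29.6% in either direction. An *MRC1* UMI was found in 43.3% and 45.7% of VE cells, in 5.91% and 6.18% of AE cells and, as a background, in 1.58% and 1.97% of CM cells. At 3000 UMIs per cell the shares were 22.1% and 25.8% of VE and 1.64% and 1.76% of AE cells. *C1QA* (1.14 and 0.0975 against 1.12 and 0.212 CPM, -0.31, adjusted p = 0.853) and *C1QC* (-0.55, adjusted p = 0.679) did not pass, and the other 7 members were too scarce to be tested. The Mo/Mø markers summed to 91.3 and 77.6 CPM in VE and 37.6 and 34.3 CPM in AE cells. Over all cells of each class, the marker *AIF1* alone stood at 50.3 and 45.3 CPM in VE and 12.8 and 11.5 CPM in AE cells. *CD14* stood at 0.565 and 0.387 CPM in VE and 0.773 and 0.339 CPM in AE cells. The part of the Mo/Mø markers in the *MRC1* difference was not tested.

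Other genes of the lists were also higher in VE than in AE cells, in sums over all cells of each class, of which only some held an *MRC1* UMI. *STAB2*, the hyaluronan scavenger receptor of sinusoids, stood at 30.6 and 18.4 CPM in VE against 0.262 and 0.722 CPM in AE cells (5.57, SE 0.40, adjusted p = 3.17e-05). *MAF* stood at 221 and 198 against 23.1 and 14.8 CPM (3.38, SE 0.21). *STAB1* was higher by 1.44 and *LYVE1* lower by 1.02, as a log2 fold change of -1.02. In all, 9 of 14 scavenger receptors were higher and 1 lower (median 0.94 against 0.01 over all genes), as were 8 of 17 clearance and residence genes with none lower (median 0.39), and 12 of 23 complement genes with 4 lower (median 0.88). The component *C7* (5.26) and the regulator *CFI* (4.05) were among the complement genes that rose.

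**Figure D5:**
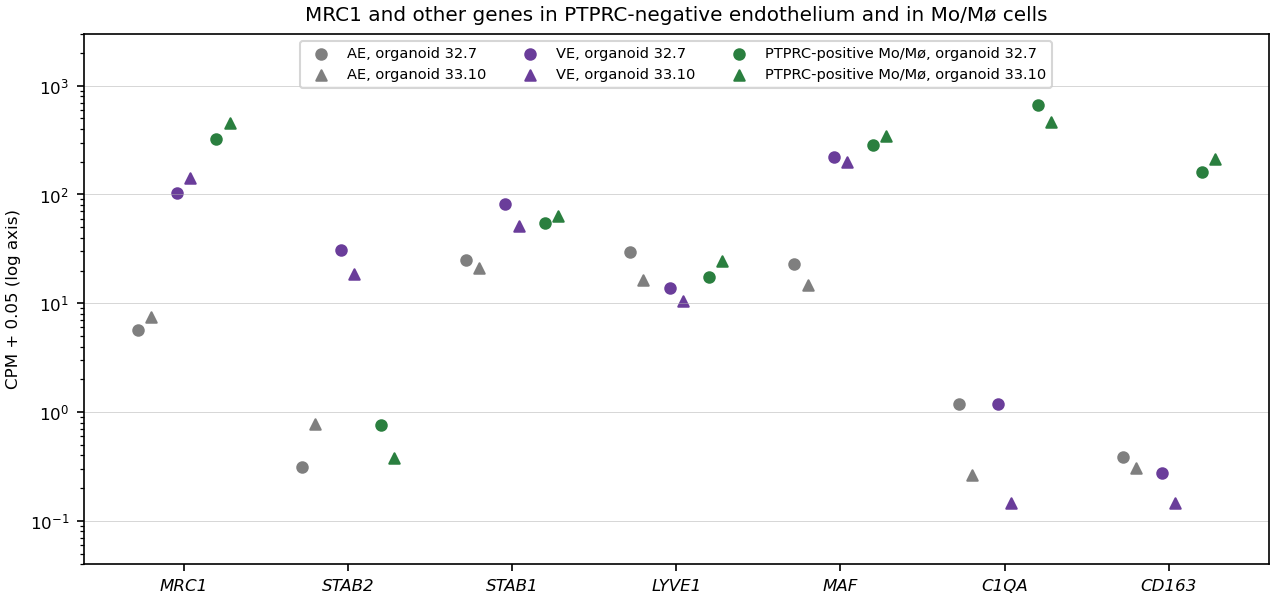
CPM with 0.05 added are plotted on a log axis for *PTPRC*-negative AE (grey) and VE cells (purple) and *PTPRC*-positive Mo/Mø cells (green), with circles for organoid 32.7 and triangles for 33.10. *MRC1* and *MAF* are high in VE and Mo/Mø cells, *STAB2* is highest in VE cells (30.6 and 18.4 CPM), and *C1QA* and *CD163* are high in Mo/Mø cells only among the groups shown.

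The genes most like each member were sought by Pearson's r of log2(CPM + 1) over 50 sums of UMIs, 1 for each cluster and organoid, among 19695 genes. These sums share libraries and depth, so r is only a description. The C1q sum was followed most closely by the Fc receptor gene *FCGR3A* (r = 0.94), *HLA-DRA* (0.93), which encodes a class II antigen-presenting chain, *CD14* (0.92) and *CLEC7A* (0.92). *HLA-DRA* stood at 381 and 98.4 CPM in Mo/Mø cells, so that its level differed between the organoids more than that of *CD14* (371 and 511 CPM). *CD163* also went with *FCGR3A* (0.97) and *CD14* (0.95), and *VSIG4* with *PLA2G7* (0.92) and the Fc receptor gene *FCGR1A* (0.92). *FOLR2* went with *TMIGD3* (0.92), *TIMD4* with *FGL1* (0.96) and *IL1RN* (0.93), and *MARCO* with *SLC37A2* (0.89). *MRC1* had lower values, with *MS4A4A* (0.86) and *STAB1* (0.84) first, and *MSR1* went at most with *SERPINA1* (0.71), which stood at 38.6 and 25.8 CPM in Mo/Mø cells and at 167 and 21.4 CPM in all other cells, so that the order differed between the organoids.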

How the data were processed

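The authors deposited raw UMI counts per gene and cell (Cell Ranger, 7.0.0 in the file header, GRCh38, intronic reads included), made before their own depth equalization, removal of free RNA and cell filter. Here a cell was kept if it had 50 to 11000 detected genes and a mitochondrial share below 30%. Genes in over 5 cells (29942) were searched for 3000 variable genes, and 33 result-list genes were left out. Clusters came from 13 principal components, 20 neighbours and Leiden resolution 0.8 (scanpy 1.11.5, leidenalg 0.10.2, Python 3.11.15) and were named from marker lists. Doublets were not removed in the main results. Scrublet's own threshold marked 0% and 19.6% of cells, so it had not worked in organoid 32.7. An alternative removed the 2266 and 3175 highest scores, numbers set by assumed doublet rates of 13.5% and 16.0%.

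Counts were summed per cell group and organoid (n = 2) and compared with edgeR 4.0.16 (R 4.3.3; TMM, filterByExpr, quasi-likelihood test, two-sided, Benjamini-Hochberg adjustment over all genes tested, adjusted p under 0.05). SEs were derived from the log2 fold change and F. DESeq2 1.42.0 was an alternative. The scripts were tested on simulated data. Each organoid gave both groups of a comparison, so the sums are paired. The correlations of paired deviations were 0.72, 0.45, 0.25, 0.60 and 0.65 over the 5 comparisons. The main fit did not use this pairing, and a fit with organoid as a block was an alternative. Intervals and the floor of 3 counts cover counting error only.

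All 10 members are named. From each list the 2 to 4 called genes with the largest change were named, with the 5 genes of largest change in each direction and the genes most like each member, and genes shown beside these for a comparison were chosen after their values were seen. The members, lists and marker scoring were chosen with earlier results of these data known. Some genes of the lists are counted but not reported here by name.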

Additional observations from a re-analysis of the deposited data

How the results depend on the processing

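No called difference of a member changed its direction under the alternatives that were tested. *C1QC* in endothelium against CM and MES cells, which was not called, went from -0.23 to 0.41 without organoid 32.7, and *C1QA* in VE against AE cells, also not called, from -0.31 to 0.07 without 33.10. Leaving out an organoid leaves 1 library in each group and allows no test, so whether the calls hold without it is not known. Of the members called higher, 9 of 9 had a log2 ratio above 0 in either organoid alone for *PTPRC* and for Mo/Mø cells. The counts were 5 of 5 for C1Q and 1 of 1 in each endothelial comparison. These members were called from the same sums, so the counts describe direction only and give no separate support. At Leiden resolution 1.2 only 3 members were called in the C1Q comparison, which then had fewer C1Q-negative cells. The mean share of *PTPRC*-positive Mo/Mø cells with at least 2 C1q genes was 73.4% as counted (70.2 to 76.6 over the organoids) and 56.7% at 3000 UMIs per cell.

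With the organoid as a replicate block the only changed call was *MSR1* in Mo/Mø cells (3.01, adjusted p = 0.0389). Over all genes the block gave 12011 in place of 6549 calls for *PTPRC*, 2093 in place of 1144 for C1Q and 8588 in place of 5280 for VE against AE. *MSR1* in Mo/Mø cells also passed with DESeq2 (adjusted p = 0.0254) and without a filter on low counts (9.69e-07), and its adjusted p ranged up to 0.325. *MSR1* in endothelium was not called after removal of high Scrublet scores (0.0688), at resolution 1.2 (0.0838) or without VE cells (0.0654). At resolution 0.4 no separate Gran cluster was named and the Mo/Mø cluster was led by *CLC*, *MPO*, *PRG2* and *PRTN3* of the granulocyte markers as well as *LYZ*, so its C1Q-negative group (520 and 192 cells) is another population, in which *MARCO* passed (2.83, adjusted p = 0.0112). The C1Q comparison called 1144 genes (37.1% higher), 113 at resolution 1.2 (58.4%), 2154 at 0.4 (58.2%), 499 with C1Q read after thinning and 2232 without a filter on low counts (52.1%). The Mo/Mø comparison called 4752 genes (50.6% higher) and 3119 without unnamed clusters (61.0%). The causes were not tested. At these depths *MARCO* and *MSR1* rest on few UMIs.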
